A study of Mus musculus with 6 samples.

Results

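Mouse Th9 cells that had been made without interleukin 1β (IL-1β) were compared before and after a week in a recipient animal. Of the 6 libraries of the series, 2 enter this comparison, 1 from cells at the end of a 3-day culture and 1 from cells recovered in vivo, chosen by their titles. Of 23091 gene symbols in the files, 8126 reached 5 FPKM in at least 1 of these 2 libraries and were compared. FPKM is a fragment count adjusted for the length of the transcript and the size of the library.

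All groups began as naive CD4 T cells of wild-type C57/Bl6j mice aged 7 weeks, taken from spleen and nodes. They were activated on plates coated with CD3 and CD28 reagents, with 20 ng/ml IL-4, 2 ng/ml TGFb and an antibody that blocks IFNgamma. The day 3 library was made after 3 days of this culture with no IL-1b. The in vivo library came from CD45.2 cells of the same culture condition that were injected into CD45.1 mice after the 3 days and sorted 1 week later. A second pair of libraries, from cells given 10 ng/ml IL-1b in culture, is set beside the first. All 4 libraries were poly(A)-selected from RNA of 300000 cells, each group has 1 library, and the labels do not say how many mice or cultures stand behind it. The sources used here do not give the tissue the injected cells were recovered from, or any marker of the sort beyond CD45.

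Th9 cells are helper T cells that arise when naive CD4 T cells are activated with IL-4 and TGFβ, and they are named for the cytokine IL-9. IL-4 acts through STAT6 and the transcription factor GATA3. TGFβ and antigen receptor signals act with it, and IRF4, BATF and PU.1 (gene Sfpi1) are the factors best known for driving Il9. In culture with strong antigen receptor and CD28 stimulation such cells grow into blasts with high amino acid uptake, glycolysis and ribosome production. Cells returned to an animal lose this stimulus and meet tissue signals instead, and Il9 expression is known to be unstable.

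With 1 library in each group there is no replicate check and no p-value for this comparison. To be counted as higher or lower, a gene needed 5 FPKM in the larger library, a ratio of (FPKM + 1) of 2-fold or more, and deposited intervals that did not overlap. Some genes listed at 0, such as Lyz2 and Sftpd at day 3, had an interval of 0 to 0. For such genes the interval condition asks only for a lower bound above 0 in the other library. Ranges in parentheses after an FPKM are these intervals. Log2 ratios are those of (FPKM + 1), in vivo over day 3, which understates changes of low genes. The median distance from centre to edge of the intervals of genes at 5 FPKM or more was 26.8% of the value in vivo and 23.4% at day 3. Summed FPKM were 361400 and 360609. In 259 and 237 entries the FPKM lay above its own upper bound, Il9 in vivo among them, and the values were used as deposited.

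The T cell identity of both libraries was checked first. Of 16 T cell identity genes, all were compared, 0 were counted, and their summed level was 3731 FPKM in vivo and 3819 FPKM at day 3. Cd3e, a chain of the T cell receptor complex, stood at 353 FPKM (277 to 339) in vivo and 327 FPKM (264 to 325) at day 3. Cd4 stood at 223 FPKM (196 to 240.4) and 231 FPKM (206 to 241). Markers of other cell types did not stay level. The 126 genes in 11 lists for B cells, macrophages, neutrophils, antigen-presenting cells, NK and CD8 cells, red cells and platelets, alveolar and airway epithelium, endothelium, stroma, and mast cells and basophils summed to 9874 FPKM in vivo, 2.73% of the library, and to 811 FPKM at day 3, 0.225%. Xbp1, in the B and plasma cell list, made up 295 FPKM of the day 3 sum and 256 FPKM of the in vivo sum. In bulk RNA, fewer cells of a type and less RNA per cell cannot be told apart.

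**Figure D1:**
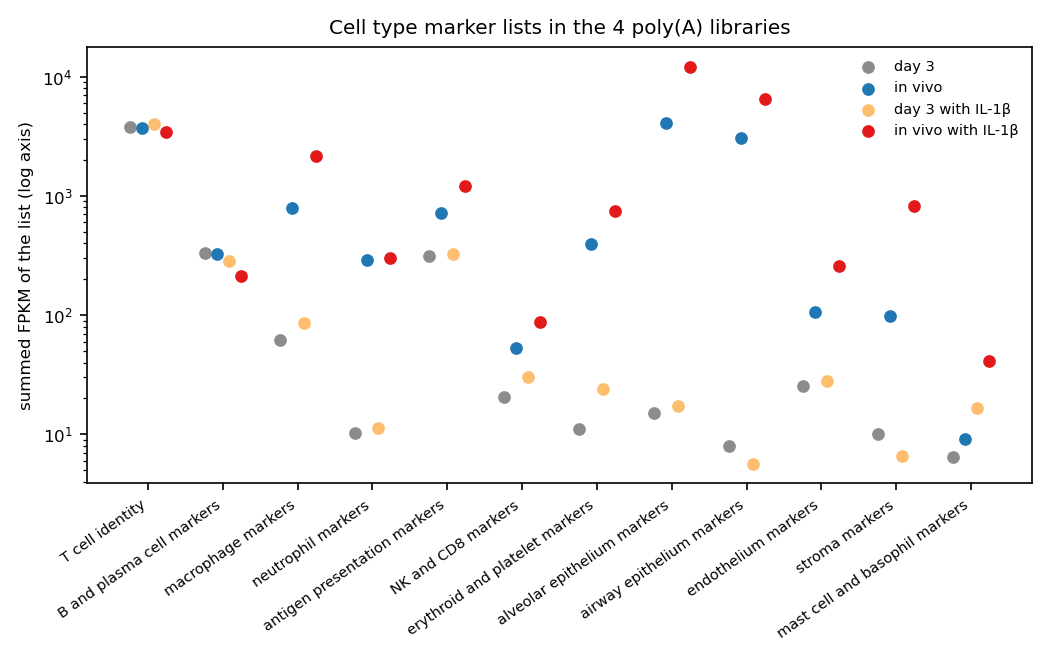
Summed FPKM (log axis) of the T cell identity list and of the 11 lists of other cell types in the 4 poly(A) libraries, 1 point per library. T cell identity sums lie together, while the lung epithelium lists stand at 4064 and 3093 FPKM in vivo against 15.2 and 7.96 FPKM at day 3 without IL-1β.

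The first result is how alike the 2 libraries were. Over 6617 genes at 5 FPKM or more in all 4 libraries, with the lists of other cell types left out, the median absolute log2 ratio between in vivo and day 3 without IL-1β was 0.195, and 1.10% of the genes differed at least 2-fold. By the median this was the smallest distance among the 6 pairs of poly(A) libraries, and the largest was 0.436, between in vivo and day 3 with IL-1β, where 11.8% of the genes differed at least 2-fold. The Pearson correlation across genes was 0.969 without IL-1β and 0.899 with it. For the 2 day 3 libraries the median was 0.297, with 2.28% of the genes at 2-fold and a correlation of 0.956, and for the 2 in vivo libraries 0.287, 5.64% and 0.929. Over the 8813 genes at 5 FPKM or more in at least 1 of the 4 libraries, which takes in genes listed at 0 in some, the order depended on the measure. There the median of 0.224 for in vivo against day 3 without IL-1β was below the 0.324 of the 2 day 3 libraries, but 5.2% against 5.17% of the genes differed 2-fold and the correlations were 0.936 and 0.944. Genes are not independent replicates, and these values describe the libraries.

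**Figure D2:**
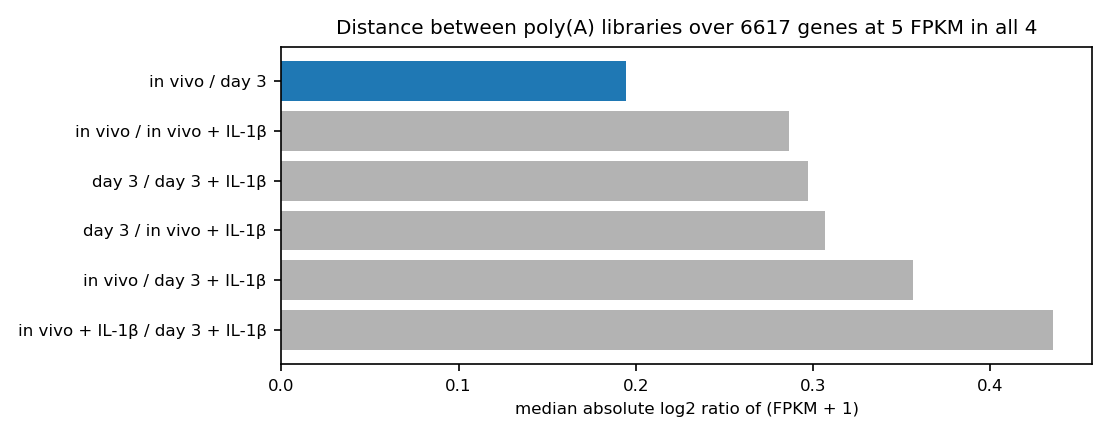
Median absolute log2 ratio of (FPKM + 1) for each pair of the 4 poly(A) libraries, over 6617 genes at 5 FPKM or more in all 4 libraries. The shortest bar, in blue, is in vivo against day 3 without IL-1β at 0.195, and the longest is the same comparison with IL-1β at 0.436.

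Of the 8126 genes compared, 173 were counted higher in vivo (2.13%) and 54 lower (0.665%). The other 7899 genes, 97.2%, were not counted. Most of the higher genes had a day 3 value under 5 FPKM: 74 were listed at 0, which in these files can be a failed estimate, 64 were above 0 but below 5 FPKM, and 35 had at least 5 FPKM. Those 35 were 0.458% of the 7638 genes with at least 5 FPKM at day 3. Of the 173, 47 stood in the lists of other cell types, which hold only a few markers of each. Of the 54 lower genes, 11 were listed at 0 in vivo, 20 were above 0 but below 5 FPKM, and 23 had at least 5 FPKM. Among the 7298 genes with at least 5 FPKM in both libraries, 35 were higher and 23 lower, and the median log2 ratio was -0.04.

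**Figure D3:**
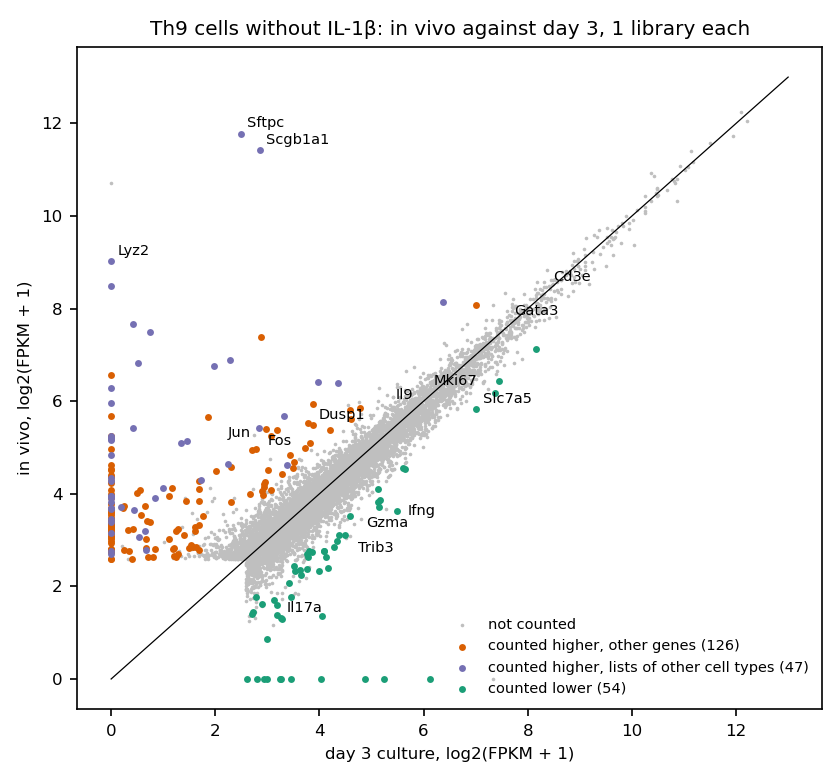
Each point is 1 of 8126 genes, with log2(FPKM + 1) at day 3 on the x axis and in vivo on the y axis, and the line marks equal values. The 173 genes counted higher lie mostly at the left edge, 47 of them in lists of other cell types, and the 54 genes counted lower lie below the line.

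The Th9 program itself was close to level. Of 24 compared Th9 genes 1 was counted, Sfpi1, and the list's median log2 ratio was 0.03, against -0.03 over all compared genes. Il9 (chr13:56580638-56583607 on mm9) stood at 59.5 FPKM (23.3 to 57) in vivo and 39.8 FPKM (16.5 to 48.4) at day 3, a log2 ratio of 0.57 with overlapping intervals. Gata3, the factor that directs type 2 responses, stood at 209.6 FPKM (184 to 226) and 194 FPKM (173 to 205). Batf, an AP-1 family factor of activated T cells, stood at 120.1 FPKM (76.1 to 119.9) and 122 FPKM (82.4 to 120.2). For each of these 3 genes the intervals overlapped. The Irf4 gene, induced by antigen receptor signals, had intervals that did not: those of 71 FPKM (62.2 to 78.8) in vivo and 118 FPKM (107 to 126) at day 3 were apart, at a difference of 1.65-fold, under the 2-fold limit.

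Sfpi1, which encodes PU.1, stood at 10.7 FPKM (5.73 to 15.6) in vivo and 0.488 FPKM (0 to 1.24) at day 3, a ratio of 7.88-fold. PU.1 is also a defining factor of macrophages and neutrophils, whose marker lists were higher in the same library. Their part in this value was not tested. Id3, an inhibitor of E proteins kept in less differentiated T cells, stood at 29.9 FPKM (16 to 40.1) and 13.2 FPKM (6.37 to 19.1), 2.17-fold with overlapping intervals. Il10, an inhibitory cytokine gene, stood at 3.24 FPKM (1.06 to 5.85) in vivo and 7.51 FPKM (3.8 to 11) at day 3, and was not counted because the intervals overlapped.

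Among the cytokine genes that define other helper states, Ifng and Il17a were lower in vivo. Ifng, the Th1 cytokine (chr10:117878103-117882948 on mm9), stood at 11.4 FPKM (5.76 to 16.7) in vivo and 44 FPKM (30.2 to 54.9) at day 3, 3.62-fold lower. Il17a, the Th17 cytokine, stood at 1.48 FPKM (0 to 2.97) and 8.55 FPKM (4.24 to 12.7), 3.85-fold lower. Both cytokine genes were lower in vivo than at day 3, with no overlap of the intervals. No type 2 or growth factor cytokine of 7 compared was counted. Il13 stood at 86.4 FPKM (59.3 to 91.6) in vivo and 74.8 FPKM (53.5 to 88.3) at day 3, Il4 at 17.1 FPKM (3.74 to 30.4) and 21.2 FPKM (9.98 to 32.3), and Il5 at 16.6 FPKM (9.96 to 22.6) and 9.95 FPKM (5.76 to 14). The levels of these type 2 cytokine genes overlapped between the libraries.

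Of 16 compared Th1 genes, Ifng was the 1 counted. Of 5 compared Th17 genes, Il17a was lower and Tmem176a, a membrane protein gene, was higher, at 21.7 FPKM (12.6 to 30.9) in vivo and 7.05 FPKM (2.56 to 11.6) at day 3. Tbx21, the master factor of Th1 cells, was below 5 FPKM in both libraries and so not compared, at 3.59 FPKM (1.63 to 5.44) in vivo and 4.93 FPKM (3.03 to 6.92) at day 3. Stat4, which relays IL-12 signals, stood at 37.4 FPKM (29.8 to 45) and 28.4 FPKM (23 to 33.5). Of 14 regulatory T cell genes 0 were counted, and 10 had a log2 ratio below 0. Without a minimum fold, 4 of the 14 had separated intervals and were lower, against 3.51% of all genes, and 1 was higher. Foxp3, their defining factor, stood at 4.44 FPKM (2.55 to 6.49) and 7.55 FPKM (5.26 to 9.77), and the list's median was -0.25. Of 11 cytotoxic effector genes 0 were counted, although the granzyme gene Gzma stood at 7.54 FPKM (2.37 to 12.7) in vivo and 22.9 FPKM (12.6 to 29.5) at day 3 and Gzmc at 11.9 FPKM (4.46 to 17.9) and 25.7 FPKM (14.8 to 34.3), with intervals that overlapped. Gzmb, another granzyme, stood at 335 FPKM (261 to 325) and 378 FPKM (306 to 373).

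**Figure D4:**
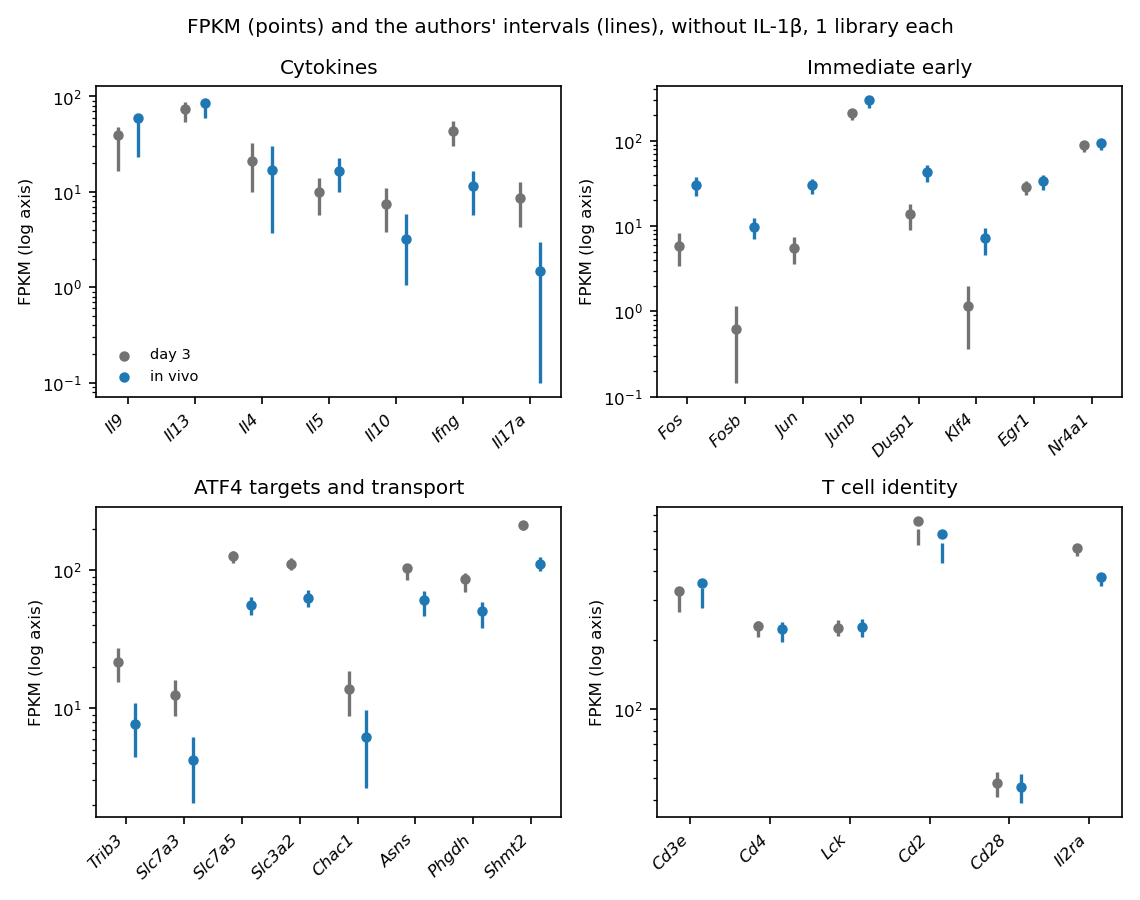
FPKM (points, log axis) and the authors' intervals (vertical lines, with a lower end of 0 drawn at 0.1) for 4 groups of genes at day 3 and in vivo without IL-1β, 1 library each. Ifng and Il17a, the immediate early genes Fos, Fosb, Jun, Dusp1 and Klf4, and the genes Trib3, Slc7a3 and Slc7a5 have separated intervals and a ratio of at least 2-fold. In the T cell identity panel the intervals of Il2ra are apart at under 2-fold, and those of Cd3e, Cd4 and Cd2 overlap.

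Apart from markers of other cells, the list with the most genes counted higher was that of immediate early genes, which are transcribed within minutes of a stimulus and encode AP-1 factors and their feedback inhibitors. Of 29 compared early activation genes, 5 were counted higher and 0 lower, where 2.13% of all genes were higher. Without a minimum fold, 8 of the 29 had separated intervals and were higher, against 3.10% of all genes. Fos (chr12:86814851-86818219 on mm9) stood at 30.3 FPKM (22.2 to 37.8) in vivo and 5.84 FPKM (3.43 to 8.17) at day 3, 4.57-fold higher. Jun, its AP-1 partner, stood at 29.9 FPKM (23.8 to 36) and 5.55 FPKM (3.64 to 7.45), 4.71-fold higher. Fosb stood at 9.61 FPKM (6.99 to 12.3) and 0.618 FPKM (0.146 to 1.17), 6.56-fold higher. Dusp1, a phosphatase that switches off MAP kinases, stood at 43.5 FPKM (32.6 to 51.5) and 13.6 FPKM (9.09 to 18.2), 3.04-fold higher. Klf4, a zinc finger factor, stood at 7.17 FPKM (4.56 to 9.59) and 1.17 FPKM (0.363 to 1.99), 3.77-fold higher. All 5 genes were higher in vivo than at day 3, with no overlap of the intervals.

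Other genes of the same class were not counted. Egr1, a zinc finger factor induced by antigen receptor signals, stood at 33.5 FPKM (26.7 to 40.0) in vivo and 28.5 FPKM (23 to 33.8) at day 3. Nr4a1 (Nur77), a nuclear receptor read as a sign of antigen receptor signalling, stood at 94.5 FPKM (77.7 to 104) and 87.9 FPKM (73.8 to 96.3). Cd69, an early surface marker of activation, stood at 9.01 FPKM (4.72 to 13.3) and 12.9 FPKM (8.17 to 17.4). The list's median was 0.19. Immediate early genes are expressed in many cell types and are also known to rise while tissue is taken apart. The markers of other cells were higher in the same library, and neither their part nor that of the sorting was tested.

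For this group and for the amino acid genes below, promoter sequences show which letters their members share. The sequences are from RefSeq on GRCm38.p6, read in the direction of the gene and ending at the start site, and capitals mark the motif (in Dusp1 the full element alone). Of the 29 early activation genes, 23 matched a promoter in the table, and the motifs of these 2 groups were chosen after the values were seen. The short cAMP response element TGACG, on either strand within 250 bases before and 50 after the start, was in 15 of the 23 (65.2%), against 23% of 27025 genes. It is not particular to this list: it was also in 52.2% of the matched amino acid genes, 48.6% of the ribosome biogenesis genes, 47.1% of the sterol synthesis genes and 43.6% of the DNA replication genes. The full element TGACGTCA, which contains the short one, was in 4 of the 23 (17.4%), against 2.03%. Fos, on the plus strand at chr12:85473640-85473889, and Dusp1, on the minus strand at chr17:26508473-26508722, are shown because both were counted higher. The short element of Fos begins at -129 and -66 from the start site, and the full element of Dusp1 at -143.
Fos: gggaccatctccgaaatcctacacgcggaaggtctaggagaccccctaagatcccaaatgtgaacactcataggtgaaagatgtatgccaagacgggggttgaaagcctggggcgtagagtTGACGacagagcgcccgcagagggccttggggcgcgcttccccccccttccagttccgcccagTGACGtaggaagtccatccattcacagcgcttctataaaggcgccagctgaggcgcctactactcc
Dusp1: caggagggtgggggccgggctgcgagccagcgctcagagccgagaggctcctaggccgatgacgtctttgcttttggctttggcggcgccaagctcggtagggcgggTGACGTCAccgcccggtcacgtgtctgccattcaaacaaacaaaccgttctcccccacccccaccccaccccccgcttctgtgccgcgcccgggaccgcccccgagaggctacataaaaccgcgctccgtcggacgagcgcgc
Members that were not counted hold the same letters: Nr4a1 and Egr2, neither of them counted, contain the short element, and Jun, counted higher, does not.

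Genes of amino acid supply lay below day 3 as a group. Cells that lack amino acids, or whose secretory pathway is under stress, translate the factor ATF4, and activated T cells use the same genes to take up and make amino acids for growth. Of 28 compared genes of amino acid transport and ATF4 targets, 26 had a log2 ratio below 0, against 53.8% of all compared genes, and the median was -0.65. By the full rule 3 were counted lower, against 0.665% of all genes, and 1 higher. Without a minimum fold, 20 of the 28 had separated intervals and were lower, against 3.51% of all genes. The list's median lay between -0.65 and -0.51 under every scaling tried.

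Among the uptake genes, Slc7a5 and Slc7a3 were counted lower. Slc7a5, the large neutral amino acid transporter (chr8:124405046-124431586 on mm9), stood at 55.9 FPKM (47.1 to 64.5) in vivo and 128 FPKM (114 to 138) at day 3, 2.27-fold lower and counted. Its heavy chain partner Slc3a2 stood at 63 FPKM (53.8 to 72.2) and 111 FPKM (100.2 to 122), with separated intervals at 1.75-fold. Slc7a3, a transporter of cationic amino acids, stood at 4.22 FPKM (2.05 to 6.15) and 12.5 FPKM (8.84 to 16.1), 2.58-fold lower and counted. Among the enzymes that make amino acids, Shmt2, which moves a carbon unit from serine to folate in mitochondria, stood at 112 FPKM (99.3 to 125) and 212 FPKM (195 to 229). Phgdh, the first enzyme of serine synthesis, stood at 51.1 FPKM (38.2 to 59) and 86.7 FPKM (69.6 to 96.1), and Asns, asparagine synthetase, at 61.1 FPKM (46.5 to 70.3) and 104 FPKM (84.8 to 110.2). All 3 enzymes had separated intervals and a difference under 2-fold.

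Atf4 itself stood at 193 FPKM (153 to 195) in vivo and 280.3 FPKM (233 to 283) at day 3, 1.45-fold lower with separated intervals. Trib3, a pseudokinase gene among the best known ATF4 targets (chr2:152163161-152169796 on mm9), stood at 7.64 FPKM (4.4 to 10.8) and 21.5 FPKM (15.6 to 27.2), 2.6-fold lower and counted. Chac1, a glutathione-degrading enzyme gene and ATF4 target, stood at 6.24 FPKM (2.66 to 9.74) and 13.7 FPKM (8.79 to 18.6), with intervals that overlapped. Nupr1, a stress-induced nuclear protein gene, went the other way, at 23 FPKM (8.88 to 32.2) in vivo and 3.92 FPKM (0.881 to 7.05) at day 3. Outside the list, and named after their values were seen, the transsulfuration gene Cth stood at 5.76 FPKM (2.7 to 8.49) and 15.9 FPKM (10.7 to 20.5). The alanine aminotransferase gene Gpt2 stood at 5.78 FPKM (3.67 to 7.73) and 16.1 FPKM (12.7 to 19.3), and the secreted glycoprotein gene Stc2 at 6.23 FPKM (3.1 to 9.3) and 18.4 FPKM (12.6 to 23.4). All 3 were counted lower.

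Of the 28 genes, 23 matched a promoter. The composite element of ATF4 and C/EBP factors, searched as TGATGNAA on either strand, was in 8 of them (34.8%), against 4.51% of the 27025 genes. Trib3, on the minus strand at chr2:152344031-152344310 and printed 30 bases past the start site to take in an element that begins 15 bases into the transcript, holds it in the reverse direction. Asns, on the minus strand at chr6:7693210-7693459, holds it from -23.
Trib3: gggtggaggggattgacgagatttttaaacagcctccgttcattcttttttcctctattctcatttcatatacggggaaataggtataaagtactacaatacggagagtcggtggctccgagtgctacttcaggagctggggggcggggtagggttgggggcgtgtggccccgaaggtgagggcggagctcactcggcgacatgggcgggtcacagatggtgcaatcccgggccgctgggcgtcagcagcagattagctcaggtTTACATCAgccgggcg
Asns: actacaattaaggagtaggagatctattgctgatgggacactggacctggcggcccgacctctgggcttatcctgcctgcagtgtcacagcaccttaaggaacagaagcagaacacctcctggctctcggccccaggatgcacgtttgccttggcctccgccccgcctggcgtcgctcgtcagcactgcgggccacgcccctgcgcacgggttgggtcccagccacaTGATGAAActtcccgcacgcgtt
Nupr1, counted higher, holds the same element, and so does Pycr1, a proline synthesis gene at 5.7 FPKM (3.34 to 7.87) in vivo and 3.05 FPKM (1.51 to 4.54) at day 3. A match is a description of the letters in this window.

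Several lists of growth and metabolism genes leaned the same way by smaller amounts, but not all. Of 37 respiratory chain and ATP synthase genes, 0 were counted and 3 were lower by separated intervals. Their median was -0.08, and 0.06 under equal upper quartiles. Of 13 fatty acid synthesis genes, 10 had a log2 ratio above 0 and 1 was counted higher, with a median of 0.09. Of 20 T cell blast genes, 19 had a log2 ratio below 0 and 9 had separated intervals and were lower. Slc7a5 was the 1 counted, and the median was -0.34. This list shares Slc7a5, Slc3a2, Slc7a1 and Slc1a5 with the amino acid list. Il2ra, the IL-2 receptor α chain, stood at 377 FPKM (345 to 384) in vivo and 502 FPKM (467 to 508) at day 3, and Tfrc, the transferrin receptor, at 41.9 FPKM (36.1 to 47.4) and 70.3 FPKM (63 to 77.6). Both receptors had separated intervals without reaching 2-fold. Myc, which drives this growth program, stood at 70.9 FPKM (61 to 80.9) and 75.9 FPKM (66.9 to 85), with overlapping intervals.

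Of 40 Myc and ribosome biogenesis genes, 36 had a log2 ratio below 0, the median was -0.42, 11 had separated intervals and were lower, and 2 were counted lower. Polr1b, a subunit of the polymerase that makes ribosomal RNA, stood at 2.03 FPKM (0.869 to 3.13) in vivo and 8.14 FPKM (5.93 to 10.2) at day 3, 3.02-fold lower. Grwd1, a ribosome assembly factor, stood at 5.83 FPKM (2.92 to 8.4) and 13 FPKM (8.7 to 17.1). The cytosolic ribosomal protein genes had a median of -0.25, with 59 of 71 below 0 and 3 counted lower. Of those 3, Rpl26 was listed at 0 in vivo and at 28.4 FPKM (11.4 to 47.1) at day 3. Many ribosomal protein genes have near-identical pseudogenes to which the authors' counting could assign reads, so single values of this family are uncertain.

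Of 23 glycolysis genes, 0 were counted, 19 had a log2 ratio below 0 and 11 had separated intervals and were lower, with a median of -0.38. Tpi1, a triose isomerase, stood at 224 FPKM (201 to 246) in vivo and 371 FPKM (343 to 399.9) at day 3, and Pgam1, a mutase later in the pathway, at 109 FPKM (85.7 to 119) and 185 FPKM (153 to 190.4). Of 17 heat shock protein genes, 15 were below 0, 8 had separated intervals and were lower, and 1 was counted lower. Hsph1, a chaperone of the Hsp110 family, stood at 6.85 FPKM (4.59 to 9.19) and 19.2 FPKM (15.4 to 23), 2.57-fold lower. Under equal upper quartiles, the scaling that moved the ratios most (by 0.15 upward), the medians stayed below 0: -0.21 for blast, -0.28 for ribosome biogenesis, -0.24 for glycolysis and -0.23 for heat shock protein genes. Leaving the lists of other cell types out of the scaling moved the ratios by 0.04, and 50 in place of 54 genes were then counted lower. That scaling leaves out the listed markers alone, and the part of the other RNA of those cells was not tested.

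The named genes with the lowest ratios among those above 0 in both libraries came from several functions. Chchd6, a mitochondrial inner membrane protein gene, stood at 1.56 FPKM (0 to 5.33) in vivo and 15.5 FPKM (9.09 to 21.9) at day 3. The others in this order, after Ifng and Il17a are set aside, were the DNA glycosylase gene Nthl1, the minor spliceosome gene Snrnp35, the transfer RNA methyltransferase gene Mettl1, the sialic acid phosphatase gene Nanp, Polr1b, the steroid dehydrogenase gene Akr1c18 and Rpl7a, with log2 ratios from -2.12 to -1.43. Rad9, Rpl26, Hnrnpa1, Degs2 and Nsun5 were listed at 0 in vivo and stood at 36.7, 28.4, 15.3, 10.0 and 8.56 FPKM at day 3. Rad9, a DNA damage checkpoint gene, was listed at 0 in vivo without IL-1β and at day 3 with IL-1β, and stood at 26 FPKM in vivo with IL-1β. Hnrnpa1 and Rpl26 are used by every cell, and both were among the genes listed at 0.

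In the lists of mitosis and DNA replication genes, none was counted in either direction. Of 49 mitosis genes and 49 DNA replication genes, 0 were counted. The mitosis median was -0.01, and it moved to 0.14 under equal upper quartiles. Mki67, the gene of the proliferation antigen Ki-67, stood at 73.7 FPKM (68.4 to 78.8) in vivo and 66.6 FPKM (62.2 to 70.9) at day 3. Ccnb1, the cyclin of mitotic entry, stood at 20.0 FPKM (14.4 to 25.5) and 20.1 FPKM (15 to 25). For both genes the intervals of the 2 libraries overlapped. The replication median was -0.15, and -0.004 under equal upper quartiles. Of the 49 replication genes, 37 had a log2 ratio below 0, against 53.8% of all compared genes. By separated intervals 5 of the 49 were lower, against 3.51% of all genes. Pcna, the sliding clamp of DNA polymerase, stood at 132 FPKM (94.8 to 138) and 222 FPKM (171 to 218).

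Sterol synthesis, which serves membrane growth, was level as well, with 0 of 24 genes counted and a median of 0.09. Hmgcs1, an early enzyme of the pathway, stood at 112 FPKM (93.3 to 128) in vivo and 97.5 FPKM (82.4 to 110.1) at day 3. Of 27 genes of naive, memory or resting T cells, 0 were counted and 21 had a log2 ratio above 0, with a median of 0.14. Over all compared genes, 46.2% had a log2 ratio above 0. By separated intervals, 1 of the 27 was higher, against 3.10% of all genes. Klf2, which maintains quiescence and recirculation, stood at 68 FPKM (51.6 to 75.4) and 48.9 FPKM (37.7 to 57.1). S1pr1, the receptor for exit from lymphoid tissue and a Klf2 target, stood at 55.7 FPKM (45.6 to 64.9) and 39.8 FPKM (33 to 46.5). Both were somewhat above day 3 with intervals that overlapped. Txnip, which restrains glucose uptake, was apart, at 57.6 FPKM (49.5 to 65.8) and 37.2 FPKM (31.4 to 42.9).

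Of 17 homing and residency genes 1 was counted, Cxcr5, the receptor that leads follicular helper T cells and B cells to follicles, at 5.25 FPKM (2.92 to 7.44) in vivo and 1.37 FPKM (0.422 to 2.32) at day 3. Cxcr3, a receptor for inflammatory chemokines, stood at 6.57 FPKM (3.02 to 9.94) and 2.75 FPKM (1.03 to 4.46), with overlapping intervals. Ccr8, a type 2 skin and lung receptor, stood at 174 FPKM (124 to 177) and 199 FPKM (149 to 194). In the TNF receptor superfamily, 2 of 20 were higher. Tnfrsf1a, the main TNF receptor, stood at 22.4 FPKM (15.8 to 29) and 10.2 FPKM (6.66 to 13.6), and Tnfsf14, the ligand LIGHT, at 16.7 FPKM (10.9 to 22.5) and 6.68 FPKM (3.86 to 9.22). Tnfrsf4 (OX40), abundant on activated T cells, was not counted, at 465 FPKM (346 to 424) and 509.6 FPKM (397 to 486).

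Interferon response genes were mostly level. Of 27 compared, 2 were higher and 0 lower, with a median of 0.12. Ly6c1, a surface protein of T cells, endothelium and monocytes, stood at 41.1 FPKM (24.7 to 57.8) in vivo and 6.84 FPKM (0.854 to 15.3) at day 3. Ly6a (Sca-1) stood at 270.2 FPKM (174 to 249) and 128 FPKM (84 to 126). Endothelium and macrophage markers were higher in the same library, and their part in these values was not tested. The classical members were low in both libraries, with Isg15 at 5.31 FPKM (0.919 to 9.19) and 2.0 FPKM (0 to 3.65) and Irf7 at 5.13 FPKM (1.71 to 8.6) and 1.67 FPKM (0 to 4.0). Other genes with at least 5 FPKM at day 3 that were higher in vivo included Mt1, a metallothionein, at 40.4 FPKM (14.1 to 44.9) and 8.14 FPKM (2.04 to 13.2), and Scd1, a fatty acid desaturase, at 55.2 FPKM (48 to 61.8) and 23.2 FPKM (19.5 to 26.8). Of the 35 such genes, 7 stood in the lists of other cell types. These lists hold only a few markers of each type, so a gene outside them is not thereby a T cell gene. The part of other cells in the values of Mt1, Scd1 and the rest was not tested.

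Markers of lung epithelium had some of the largest ratios. Of 14 listed alveolar and 10 listed airway epithelium markers, 10 and 6 were compared. All of those compared were counted higher, with median log2 ratios of 5.18 and 5.77. Most of them passed the 5 FPKM filter by their in vivo value alone, so these counts were nearly fixed by the filter. The full lists summed to 4064 and 3093 FPKM in vivo and to 15.2 and 7.96 FPKM at day 3. Sftpc, the surfactant protein of alveolar type 2 cells, stood at 3512 FPKM (2419 to 2683) in vivo and 4.6 FPKM (1.37 to 7.56) at day 3. Scgb1a1, the secretoglobin of club cells, stood at 2736 FPKM (1308 to 1563) and 6.25 FPKM (1.18 to 10.6). Both in vivo values exceed their own upper bound. Sftpb and Cbr2 stood at 202 and 181 FPKM in vivo, each below 1 FPKM at day 3. Bpifa1, Wfdc2 and Sftpd were listed at 0 at day 3 and stood at 76.5, 93.5 and 61 FPKM in vivo. Both Sftpc and Scgb1a1 stood above Cd3e, at 353 FPKM, in a library labelled as T cells.

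Blood and tissue cells were represented too. Of 20 macrophage, 10 neutrophil, 12 endothelium and 13 stroma markers listed, 13, 5, 7 and 6 were compared. Those counted higher in these 4 lists likewise passed the filter by their in vivo values, so their counts are no test. Of 13 macrophage markers 10 were higher, and Lyz2, a lysozyme of myeloid cells, stood at 521 FPKM (379.9 to 465) in vivo and was listed at 0 at day 3. All 5 compared neutrophil markers were higher, with S100a8 at 107 FPKM (30.1 to 81.5) and 2.91 FPKM (0 to 5.63). Of 6 antigen presentation markers 4 were higher, with Cd74, the invariant chain of MHC class II, at 281 FPKM (252 to 310.4) and 82 FPKM (68.5 to 95.5). Of 3 erythroid and platelet markers 1 was higher. This was Hba-a1, a haemoglobin chain of red cells, which stood at 357 FPKM (285 to 434) in vivo and was listed at 0 at day 3. Of 7 endothelium markers 5 were higher, as were 5 of 6 stroma markers, among them Cldn5 at 14.1 FPKM and Mgp at 36 FPKM, both listed at 0 at day 3. Of 6 B and plasma cell markers 2 were higher, Cd79b and Sdc1. Of 3 NK and CD8 markers 1 was higher, Tyrobp, which macrophages also express and which stands in their list as well. None of the mast cell and basophil markers reached 5 FPKM. Apoe, Cxcl2, Il1b and Ifitm3, higher in vivo and expressed by several of these cell types, cannot be assigned to T cells from these files.

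The pair made with IL-1β shares no library with the first pair, and its values are set beside them. There, 1032 of 8572 compared genes were higher in vivo (12.0%) and 503 lower (5.87%), and under equal upper quartiles 1513 and 275. Of the 173 genes higher without IL-1β, 133 were also higher with it, 76.9% of the first list and 12.9% of the second. Of the 54 lower, 12 were also lower with IL-1β, 22.2% of the first list and 2.39% of the second. The lists of other cell types summed to 24247 FPKM in vivo with IL-1β (6.59% of the library) and to 832 FPKM at day 3. Their summed level was thus higher still in that in vivo library, though not for the B and plasma cell list (213 FPKM against 323 FPKM in vivo without IL-1β). Most of that list's sum was Xbp1, at 148 FPKM in vivo with IL-1β and 256 FPKM without it. Cd79a and Sdc1 stood higher in vivo with IL-1β (12.6 and 19.8 FPKM, against 8.25 and 5.91 FPKM) and Cd79b lower (7.85 against 23.8 FPKM). T cell identity genes had medians of -0.02 and 0.02.

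**Figure D5:**
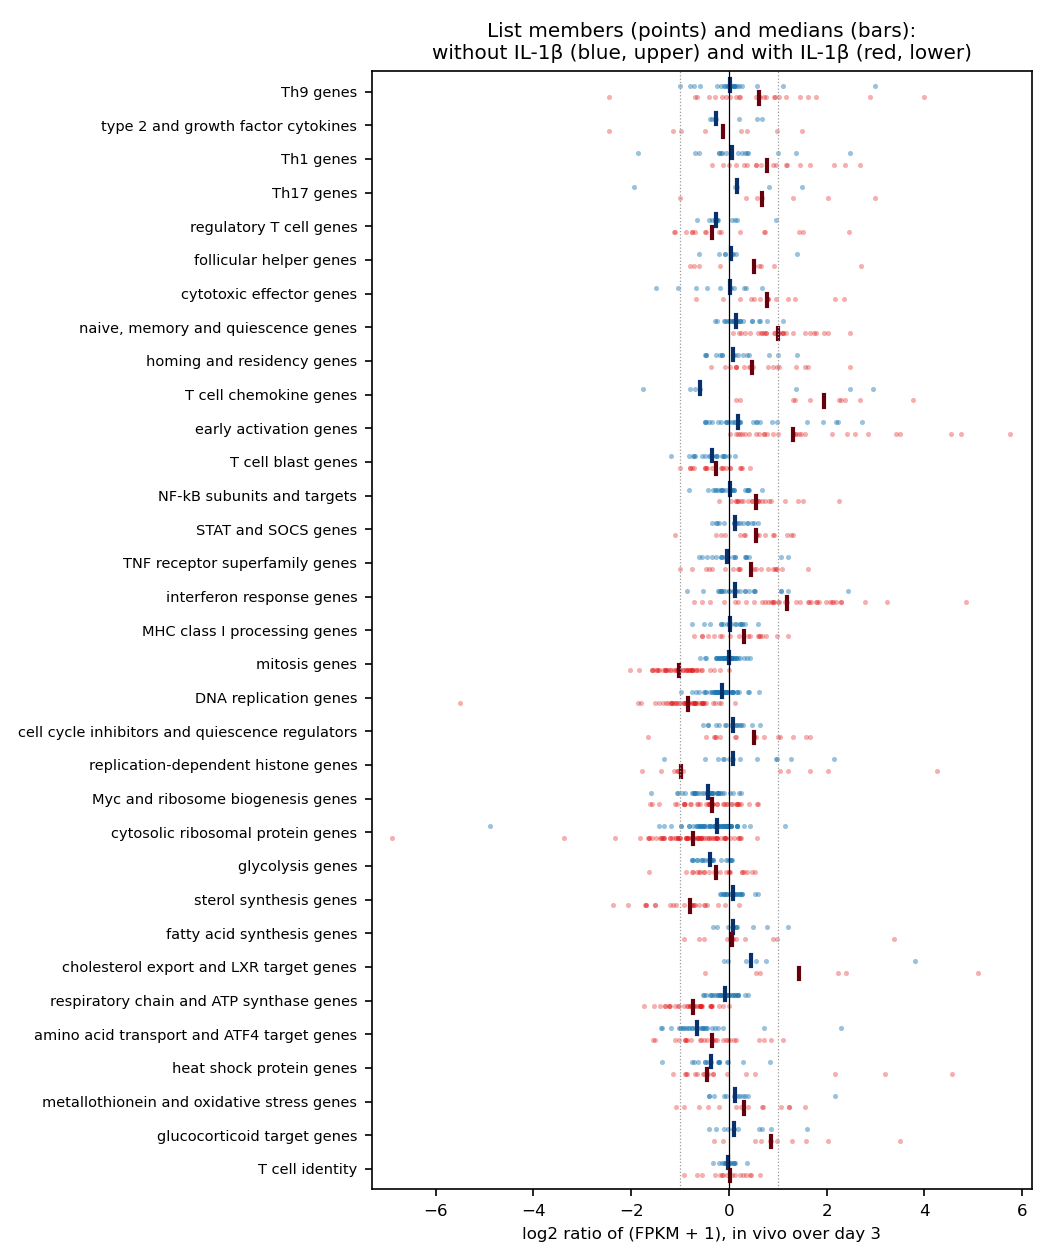
Log2 ratios of (FPKM + 1), in vivo over day 3, for members of the lists of T cell functions (points) and their medians (bars), without IL-1β (blue) and with IL-1β (red), 1 library per group, with dotted lines at 2-fold. Without IL-1β the amino acid list has a median of -0.65 and the ribosome biogenesis, glycolysis, heat shock and blast lists lie between -0.42 and -0.34, while with IL-1β mitosis genes lie at -1.02 and early activation genes at 1.31.

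List by list, the pairs looked different, and none of these differences was tested. Mitosis genes had a median of -1.02 with IL-1β, 24 of 48 lower, against -0.01 and 0 of 49 without it. Sterol synthesis genes had -0.79, with 10 of 24 lower, against 0.09, and Hmgcs1 stood at 19.9 FPKM in vivo and 85.8 at day 3 with IL-1β. Naive, memory and quiescence genes had 1.01, with 13 of 27 higher, against 0.14. Interferon response genes had 1.18, with 20 of 37 higher, against 0.12. The amino acid list was below 0 in both pairs, at -0.34 with IL-1β, where 4 of 27 were lower. With IL-1β the ratio also moved with transcript length (Spearman correlation across genes 0.32, with medians of -0.38 in the shortest 20% and 0.48 in the longest), against a correlation of 0.03 without it, over the 91.2% of compared genes with a length. The part of length in the list medians with IL-1β was not tested.

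Fos and Jun were counted higher in both pairs, with larger ratios with IL-1β. Fos stood at 142 FPKM in vivo and 5.13 at day 3 with IL-1β, a log2 ratio of 4.55 against 2.19 without it. Jun stood at 134 and 4.06 FPKM, 4.74 against 2.24. Il9 went the other way: it stood at 49.6 FPKM (17.7 to 48) in vivo and 274 FPKM (149 to 227) at day 3 with IL-1β, so the 2 in vivo libraries held similar levels and the 2 day 3 libraries did not. Ifng with IL-1β stood at 86.3 FPKM (58.3 to 90.3) in vivo and 78.3 FPKM (56.3 to 88.9) at day 3, level, while it was lower in vivo without IL-1β.

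A difference common to both pairs was tested with limma over the 4 libraries, with IL-1β as a covariate. With 1 residual degree of freedom, the spread per gene rests on sharing it across genes. That spread is how far the difference departs between the 2 pairs, and not a spread between replicates of a condition. By limma with Benjamini-Hochberg adjustment at 0.05, 379 of 8901 genes were called higher in vivo (4.26%) and 29 lower (0.326%), and 1060 had an unadjusted p under 0.05. For Fos, limma gave a log2 change of 3.37 (SE 0.47, adjusted p = 2.90e-04), higher in 2 of 2 pairs. Jun had 3.49 (SE 0.49, limma adjusted p = 2.70e-04) and Sfpi1 3.49 (SE 0.39, limma adjusted p = 2.54e-05), each higher in 2 of 2 pairs. Cth had -1.86 (SE 0.39, limma adjusted p = 0.00813), lower in 2 of 2 pairs. Trib3 (-0.99, limma adjusted p = 0.234), Slc7a5 (-0.65, limma adjusted p = 0.604), Ifng (-0.86, limma adjusted p = 0.511) and Il9 (-0.94, limma adjusted p = 0.581) were not called. None of the 28 amino acid genes was called lower by limma and Nupr1 was called higher, with 0 of 49 mitosis genes called.

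Further promoter motifs were counted in the lists they are known for, on both strands of the same windows. The cell cycle element TTTGAA was in 30 of 42 matched mitosis genes (71.4%), against 20.2% of all genes, and the E2F element TTTNNCGC in 17 of 39 replication genes (43.6%), against 5.93%. The interferon-stimulated response element was in 12 of 23 interferon response genes (52.2%), against 3.99%. The E-box CACGTG was in 9 of 35 ribosome biogenesis genes (25.7%), against 8.09%, but also in 6 of 23 early activation genes (26.1%) and 4 of 17 sterol synthesis genes (23.5%), and the sterol element TCACNCCAC was in 1 of 17 sterol synthesis genes (5.88%), against 1.44%.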

How the data were processed

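Values were FPKM per gene with a lower and an upper bound, made and deposited by the authors, per the file headers. The submitters' processing notes name TopHat and mm9. The sources used here do not give the tool behind the FPKM, the level of the intervals or the sequencing depth, so depth limits the precision only through the intervals. Of 23700 entries per file, 285 without status OK were left out. Entries of 1 symbol were summed with their bounds (190 symbols). The pseudocount was 1. limma 3.58.1 in R 4.3.3 was fitted to log2(FPKM + 1) of genes with at least 5 FPKM in 1 of the 4 poly(A) libraries. The rest used Python 3.11.15, numpy 2.4.6, pandas 2.3.3, statsmodels 0.14.6 and matplotlib 3.10.9. The counting rule and limma were also run on simulated data. The simulated noise was taken from the deposited intervals and from the spread limma fitted. These runs therefore say nothing of the spread between cultures or mice.

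The comparison, lists and rules were chosen with earlier results of these data known. Named genes were a core set, every counted member of a list, and in each list up to 4 members whose ratios lay farthest from 0. Counted genes above 0 in both libraries gave the 10 highest and the 10 lowest ratios. To these came the 10 largest at 5 FPKM or more at day 3 and the 5 highest listed at 0 in the other library, with unnamed models left out. Further list members were named for their function or after their values were seen. Coordinates of genes are those of the files on mm9, counted from 1. Promoters are RefSeq windows on GRCm38.p6, matched by symbol or synonym. The 1 h libraries were not used here, because their RNA was depleted of ribosomal RNA instead of poly(A)-selected. P-values from limma measure only the spread between these libraries. A few list members are not reported here.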

Additional observations from a re-analysis of the deposited data

Results flagged for a closer look

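These named genes had log2 ratios of opposite sign in the pairs without and with IL-1β, above a minimum size in each, and were counted in at least 1 pair. Rad9 alone was counted in both. Il9, Gzma, Gzmc and Mvd were not counted without IL-1β, and Hsph1, Polr1b and Cd79b were not counted with it. With 1 library in each group, the difference was not tested for any of them. Each value is the log2 ratio with IL-1β minus that without it. Among the effector genes it was -3.01 for Il9 (log2 ratios -2.44 with and 0.57 without IL-1β), 2.70 for Gzma (1.21 and -1.49) and 2.41 for Gzmc (1.36 and -1.05). It was 1.91 for the chaperone gene Hsph1 (0.54 and -1.36), -1.75 for the sterol synthesis gene Mvd (-1.21 and 0.54), 2.16 for Polr1b (0.57 and -1.59) and -1.95 for the B cell receptor gene Cd79b (-0.70 and 1.25). For Rad9 it was 9.99, with values listed at 0 in 1 library of each pair. Beyond Rad9, 6 genes were counted higher without IL-1β and lower with it, among them Exosc6, Oip5 and Yipf2, named after their values were seen. Each of these 3 was listed at 0 at day 3 without IL-1β and in vivo with it.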

How the results depend on the processing

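With 1 library per group no replicate could be left out, and limma without a library was not run because no residual degree of freedom remains. Depth is unknown, so nothing can be said of values listed at 0. The count of 173 higher genes became 391 with no filter on low values, 106 at 10 FPKM, 35 at 5 FPKM at day 3 and 99 without genes listed at 0. The count of 54 lower genes became 29 with a pseudocount of 5, 87 with no filter, 21 at 3-fold, 100 without the intervals and, in an alternative chosen after seeing the data, 285 with no minimum fold. The 379 genes that limma called higher became 241 with a pseudocount of 5, 41 at 5 FPKM in all 4 libraries, 78 with no filter and 207 with a mean-variance trend. Its 29 lower became 8 and 55 with pseudocounts of 0.1 and 5, 4 with no filter, 46 with equal medians and 83 with the trend. The cause was not tested, beyond fewer or more genes being compared. The other alternatives for these 4 counts gave values within 1.5 times. For the 214 named genes, 3195 of 3274 values kept direction and side of the counting rule. A further 28 were still compared but no longer counted, 51 became counted and 0 changed direction while counted. Named genes that an alternative no longer compared are left out of these numbers, so their loss does not show there. Values remained for 151 of the 214 at 5 FPKM at day 3, 176 at 10 FPKM and 185 without genes listed at 0. Of the list medians under an alternative, 684 stayed and 34 moved.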
